A study of Pleurodeles waltl with 10 samples.

Results

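The AMPA and NMDA receptor subunits are 9 genes, GRIA1, GRIA2, GRIA3, GRIA4, GRIN1, GRIN2A, GRIN2B, GRIN2C and GRIN2D, and they are described here through the transcripts listed for them in the transcript catalogue of the series. A catalogue row belonged to a subunit when its gene name, in upper case, was one of these symbols. All 9 were present, among 16771 gene names once differences of case were ignored. The set was chosen by transcript number, in that GRIN1 and GRIA2 were known to stand near the top of the catalogue and the rest of their families was added to them. Numbers of transcripts are therefore descriptions and carry no test.

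The catalogue belongs to a single-cell study of Pleurodeles waltl, the Iberian ribbed newt, in which larval forebrain was taken at stage 55. All animals had received PHP-GFP, a virus that carries the fluorescent marker GFP, at stage 37, 41 or 51. The 5 gene expression libraries came from injections at stage 37 (2 libraries), stage 41 (1 library) and stage 51 (2 libraries), and 5 multiplexing oligo libraries matched them. Expression in these libraries was not analysed here, so no injection stages were compared, the depth is unknown, and a number of transcripts below is a number of catalogue entries and not a level of RNA.

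Glutamate is the main excitatory transmitter of the vertebrate brain, and its fast signals pass through ion channels built from several subunits. AMPA receptors, assembled from the products of GRIA1 to GRIA4, open within moments of glutamate release and carry most of the fast current. NMDA receptors need GluN1, the product of GRIN1, together with GluN2 subunits from GRIN2A to GRIN2D. They let calcium in when glutamate arrives at an already depolarised cell, and are known for their part in synaptic plasticity. In mammals, many of these subunits exist in several splice forms, such as the flip and flop forms of AMPA subunits and the forms of GluN1 that differ at both ends of the protein.

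Nearly all transcripts came from a pair of sources that can be told apart by name. The exceptions were 3 entries of the catalogue that start with neither pt_ nor TRINITY_, and none of them was listed under a subunit. Names that start with pt_ contain the words HQ_transcript, and all of them share 1 prefix, so that they differ only in a running number. Names that start with TRINITY_ have the form written by the Trinity assembler, in which the DN and c numbers name a component of overlapping reads, the g number a cluster within it and the i number an isoform of the cluster. How either set was assembled and given gene names is not stated in the sources used here. No column of the catalogue belongs to a sample, so the tissue and stage behind an entry cannot be read from it. The entries are therefore not taken as transcripts of larval forebrain.

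The 9 subunits held 871 distinct transcripts, 0.448% of the 194378 pairs of transcript and gene name in the catalogue. Transcripts were distinct by name only. Their sequences were not compared, so these numbers are not numbers of splice forms. Of these, 851 (97.7%) were pt transcripts and 20 were TRINITY transcripts. In the whole catalogue the pt share was 82.7%. A high share was not particular to these subunits. It was 96.1% for metabotropic glutamate receptors, 94.6% for kainate receptor subunits, 95.4% for neurexins and neuroligins, and 91.7% for GABA-A receptor subunits. At least 1 pt transcript was listed for 8 of 9 subunits and for 71.9% of the other gene names, and both sources for the same 8 subunits and 70.6% of the other names. The median was 61 transcripts per subunit, against a median of 6 over the 16762 other gene names. Every subunit except GRIN2C lay above that median, that is 8 of 9, while 45.6% of the other gene names did.

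**Figure D1:**
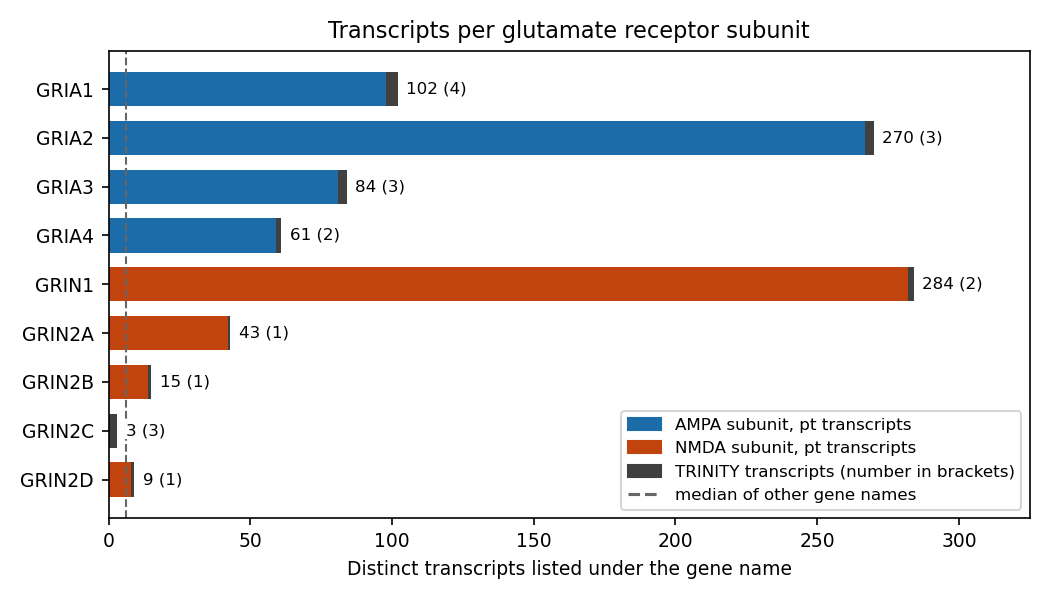
Distinct transcripts per subunit, with pt transcripts in blue (AMPA) or orange (NMDA) and TRINITY transcripts in dark grey at the end of each bar, where the printed numbers are the total and, in brackets, the TRINITY transcripts. GRIN1 with 284 and GRIA2 with 270 have the longest bars, GRIN2C with 3 lies below the dashed median of 6 for other gene names.

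The AMPA subunits had many transcripts throughout. GRIA2, whose product is the subunit that keeps most mammalian AMPA receptors from passing calcium, had 267 pt and 3 TRINITY transcripts, 270 in all. GRIA1, an abundant subunit of forebrain synapses in mammals, had 98 pt and 4 TRINITY transcripts. GRIA3 had 81 pt and 3 TRINITY transcripts. GRIA4, known in mammals for fast receptors of certain interneurons and of early development, had 59 pt and 2 TRINITY transcripts. GRIA2 alone thus held 52.2% of the 517 AMPA transcripts, and the other three lay within a narrow span, from 61 for GRIA4 to 102 for GRIA1. The AMPA median was 93.

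The NMDA subunits were spread much more widely. GRIN1, which encodes the subunit that every NMDA receptor contains, had 282 pt and 2 TRINITY transcripts, 284 in all. GRIN2A, the GluN2 subunit that gains weight as mammalian cortex matures, had 42 pt transcripts and 1 TRINITY transcript. GRIN2B, which dominates earlier in mammalian forebrain, had 14 pt transcripts and 1 TRINITY transcript. GRIN2D, known in mammals from early stages and from interneurons, had 8 pt transcripts and 1 TRINITY transcript. GRIN2C, which in mammals is best known from cerebellar granule cells, had 0 pt transcripts and 3 TRINITY transcripts. GRIN1 therefore held 80.2% of the 354 NMDA transcripts, and the 4 GluN2 genes together held 70. The NMDA median was 15, and the highest number was 94.7 times the lowest, against 4.43 times among AMPA subunits.

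Placed among all names, 3 of the 9 subunits (GRIN1, GRIA2 and GRIA1) had at least 100 transcripts, compared with 0.567% of the other gene names. With pt transcripts only, 2 subunits reached 100, since GRIA1 has 98 pt transcripts and passes through its 4 TRINITY transcripts. At a limit of 50 transcripts, GRIA3 and GRIA4 joined them, giving 5 of 9 against 3.27% of other names, and at a limit of 200 only GRIN1 and GRIA2 were left, 2 of 9 against 0.0597%. Among other names with both sources, 0.794% reached 100 transcripts, and among those that match a RefSeq symbol 0.635%. GRIN1 ranked 2 and GRIA2 ranked 3 in the catalogue, behind L1TD1 with 339 transcripts. The source of that leading name differed, since 316 of its transcripts were TRINITY transcripts and 23 were pt transcripts. GRIA1 ranked 89, GRIA3 ranked 141 and GRIA4 ranked 332. GRIN2A ranked 745, with 4.64% of the other names at its number or above. GRIN2B was matched or exceeded by 24.3% of the other names, GRIN2D by 38.2% and GRIN2C by 71.1%. These shares describe genes picked with their numbers known, and nothing is read from them beyond that.

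**Figure D2:**
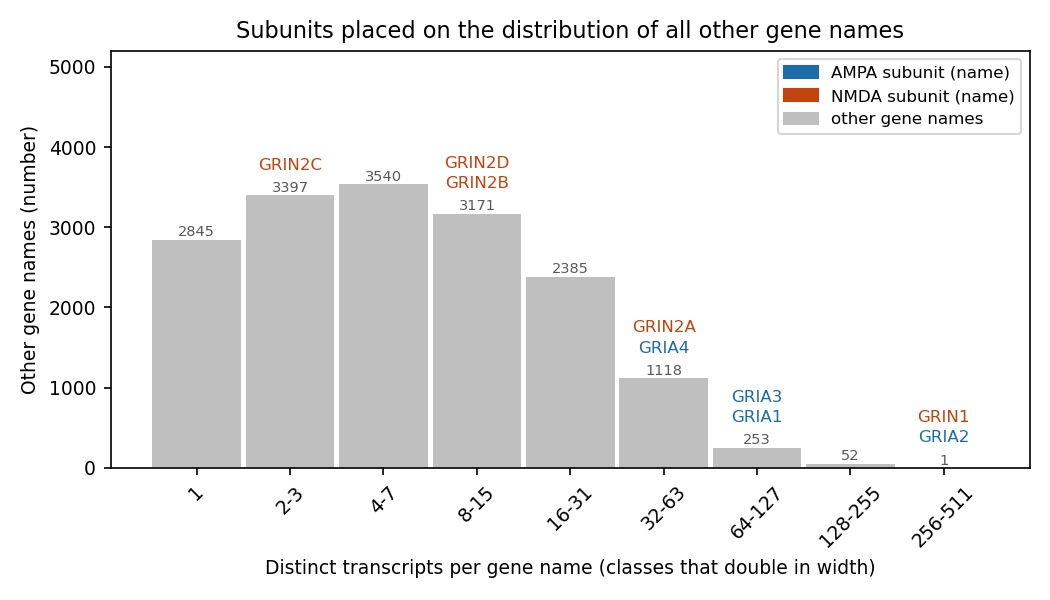
Other gene names by their number of distinct transcripts, in classes that double in width, with the name of each subunit written above the class it falls into. GRIN1 and GRIA2 stand in the last class, which holds 1 other gene name, while GRIN2B, GRIN2C and GRIN2D stand above the tall classes that hold 3171 and 3397 other names.

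The names whose make-up was most like that of the leading subunits were sought by distance over pt transcripts, TRINITY transcripts and TRINITY clusters, each as log2 of the number plus 1. For GRIN1 the nearest names were GRIA2 (distance 0.59), SPTBN1 (0.63) and PGBD4 (0.68). For GRIA2 they included SPTBN1 (0.16) and GRIN1 (0.59). SPTBN1, which encodes a spectrin of the membrane skeleton, had 239 pt and 3 TRINITY transcripts. PGBD4, named for a transposase of the piggyBac type, had 176 pt and 2 TRINITY transcripts. GRIN1 and GRIA2 were thus among each other's nearest names. Both had been picked for high transcript numbers, which also enter this distance, so nothing further is read from their closeness.

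Spelling did not divide the transcripts of any subunit. Each of the 9 was written in upper case only, whereas 339 other gene names occurred in more than 1 spelling. None of the 871 transcripts was listed under a second gene name, that is 0 of 9 subunits shared a transcript, and 0.537% of the other names did. All 9 symbols matched a symbol in the RefSeq gene table of this species, as did 74.2% of the other names. An expression table that sums transcripts by gene name would collect all 871 entries under the 9 symbols.

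Among TRINITY transcripts, the AMPA subunits were tied to each other by assembly component. A first component held GRIA1 (TRINITY_DN298809_c1_g1_i2), GRIA3 (TRINITY_DN298809_c1_g3_i2) and GRIA4 (TRINITY_DN298809_c1_g4_i3), each in a cluster of its own. A further component held GRIA1 (TRINITY_DN306299_c0_g2_i1 and TRINITY_DN306299_c0_g2_i6) beside GRIA2 (TRINITY_DN306299_c0_g5_i1 and TRINITY_DN306299_c0_g13_i1). Every AMPA subunit therefore shared a component with another AMPA subunit, and no AMPA component held a gene name from outside the family.

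GRIA3 and GRIA4 also met within 1 cluster. Its listed transcripts were TRINITY_DN167766_c0_g4_i9 and TRINITY_DN167766_c0_g4_i23 under GRIA3 and TRINITY_DN167766_c0_g4_i12 under GRIA4. The isoform numbers run to 23, although only 3 transcripts of the cluster are listed. The pt transcripts, which make up 81 of 84 for GRIA3 and 59 of 61 for GRIA4, carry no such grouping in their names. How far reads of GRIA3 and GRIA4 can be told apart was not tested.

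The NMDA subunits had no component in common with each other or with an AMPA subunit. Only GRIN2C among them shared a component with any other name. It stood in a component (TRINITY_DN304819_c5) with FDXR, the gene of ferredoxin reductase of mitochondria, and with C1ORF216. FDXR is also the next named protein-coding gene beside GRIN2C in the RefSeq order of this species. Across the catalogue, 1378 pairs of names that shared a component were both such RefSeq genes, and 194 of these pairs (14.1%) were neighbours. In all, 5 of 9 subunits (the 4 AMPA subunits and GRIN2C) shared a component with another name, against 19.9% of the other names that have TRINITY transcripts. Sharing of a cluster was seen for 2 of 9 subunits, against 6.78% of those names.

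**Figure D3:**
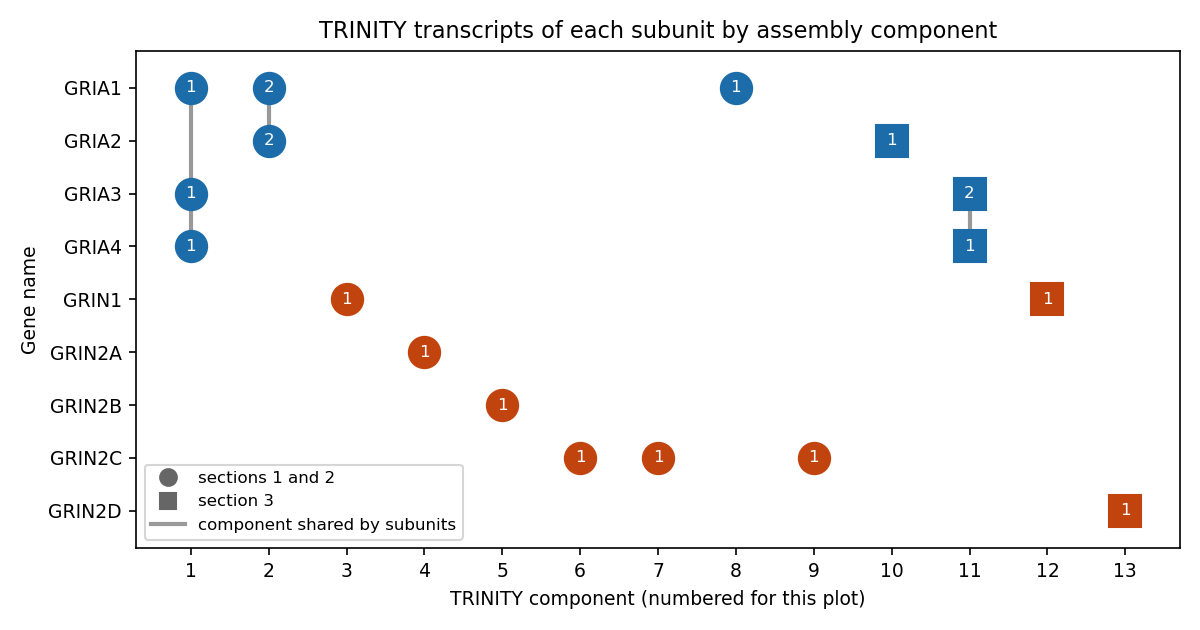
TRINITY transcripts of each subunit (rows) by assembly component (columns), where the number in a symbol is the number of transcripts and a grey line joins subunits of the same component. Lines join only AMPA subunits, and the column with GRIA3 and GRIA4 as squares is the component whose single cluster carries both names.

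The TRINITY part of the catalogue fell into 3 sections, each in ascending order of names, with 22685, 5659 and 5344 transcripts once identical entries had been removed. Sections 1 and 2 had 769 clusters in common, of which 613 (79.7%) carried a common gene name. Section 3 had 3 clusters in common with section 1, of which 0 carried a common name, and 0 in common with section 2. GRIN1, GRIA2, GRIA3 and GRIA4 were listed in section 3 and again in sections 1 or 2. GRIN2D was listed in section 3 only, and GRIA1, GRIN2A, GRIN2B and GRIN2C in sections 1 or 2 only. Of the other names with TRINITY transcripts, 15.3% were listed on both sides. The 17 TRINITY clusters of the subunits comprised 13 from sections 1 and 2 and 4 from section 3.

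More than 1 TRINITY cluster was found for 6 of 9 subunits, against 39.1% of the other names with TRINITY transcripts. GRIN2C had 3 clusters in 3 components for its 3 transcripts, which was as many clusters as GRIA1 and GRIA2 had. GRIA3, GRIA4 and GRIN1 had 2 clusters each, and GRIN2A, GRIN2B and GRIN2D had 1 each. For GRIA3, GRIA4 and GRIN1, 1 of the 2 clusters lay in section 1 and 1 in section 3. These genes had more than 1 cluster only because clusters were counted over all sections, as they also were for the other names. Whether such clusters in different sections stand for the same sequence was not tested. Only TRINITY names carry a cluster, so the 282 pt transcripts of GRIN1 do not enter its number of clusters. The 2 TRINITY transcripts of GRIN1 lay in these 2 clusters.

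Set beside their relatives, the AMPA subunits had the highest median of the glutamate receptor families that were listed. The median was 93 for AMPA and 15 for NMDA subunits, against 28 for the 5 kainate subunits (GRIK1 to GRIK5) and 31.5 for the 8 metabotropic receptors, which signal through G proteins. The highest number was 56 among kainate subunits (GRIK2) and 82 among metabotropic receptors (GRM5), so GRIN1, GRIA2, GRIA1 and GRIA3 exceeded all of them. The lowest were 7 for GRIK4 and 4 for GRM6. The GluN3 genes, whose products bind glycine in place of glutamate, had 17 (GRIN3A) and 5 (GRIN3B) transcripts. The GluN2 genes nearest to them in number were GRIN2B with 15 and GRIN2C with 3. The only other name that starts with GRIA or GRIN was GRINA, with 29 transcripts, which despite its symbol does not encode a channel subunit.

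Partner genes of the receptors were also listed. Among 16 genes of auxiliary subunits that travel with AMPA or kainate receptors, 15 were present with a median of 22. CNIH2, a cornichon that slows AMPA receptor closing in mammals, had the most with 66, and CNIH3 had the fewest with 1. The symbol GSG1L had no entry. CACNG4, CACNG7 and CNIH3 had no pt transcript, as was the case for GRIN2C. The 19 scaffold and anchoring genes of the postsynaptic density had a median of 21, and the most transcripts were the 102 of DLG4, the gene of PSD-95. CaMKII, a kinase that binds GluN2B in mammals, was represented by 3 of its 4 genes, with 79 transcripts for CAMK2A, 51 for CAMK2B and 97 for CAMK2D, while the symbol CAMK2G had no entry. Vesicular glutamate transporters had 152 (SLC17A7), 47 (SLC17A6) and 4 (SLC17A8) transcripts. The genes of the family named adenosine deaminases acting on RNA had 79 (ADAR), 42 (ADARB1) and 9 (ADARB2) transcripts. Of these, ADARB1 edits the pore of GRIA2 in mammals. Of all 60 partner and relative genes present, some of them not named here, 52 lay above the median of 6, against 45.6% of the other gene names. At least 100 transcripts were listed for 2 of the 60 (DLG4 and SLC17A7), against 0.567% of the other gene names.

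**Figure D4:**
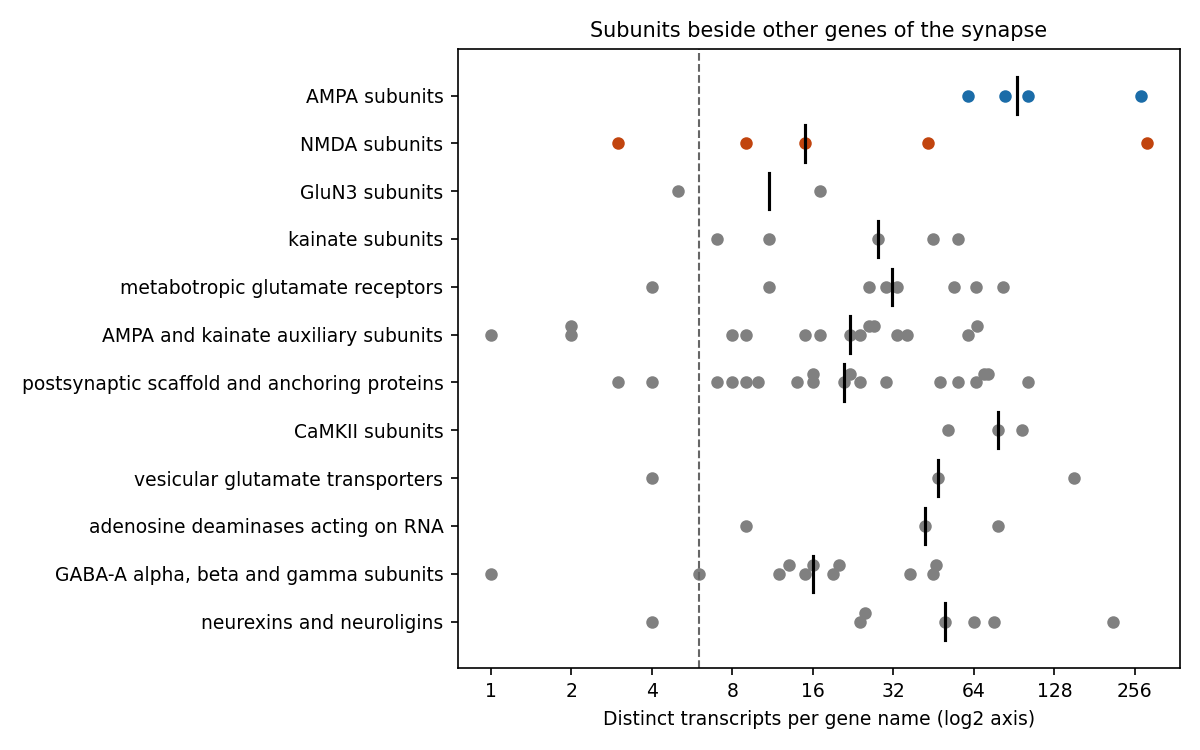
Distinct transcripts per gene name on a log2 axis for each gene list, with a point per gene present and a vertical bar at the list's median; the dashed line is the median of 6 over other gene names, and symbols with no entry are not drawn. AMPA points lie between 61 and 270, while NMDA points run from 3 to 284.

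The fast inhibitory receptors and the synaptic adhesion genes gave a further frame. For the 9 glutamate receptor subunits the median was 61, against 16 for the 11 GABA-A alpha, beta and gamma subunits present and 50 for the 7 neurexins and neuroligins. The lowest GABA-A subunit was GABRB1 with 1, which had no pt transcript, and the symbol GABRA6 had no entry. Among the adhesion genes NLGN3 had the fewest, with 4. The lists are small and were chosen with earlier results known, and these differences were not tested.

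The genes that flank the subunits in the RefSeq order were also looked up. Of the 18 nearest named protein-coding neighbours, 16 were in the catalogue, and with the missing symbols counted as 0 their median was 6 transcripts. The median over other gene names was taken over names present only, so it is not a like comparison. Whether a missing symbol is listed under another name was not checked. The highest was 61 for USP7, which stands beside GRIN2A with 43. Flanking genes also exceeded GRIN2B with 15, through ATF7IP with 19, and GRIN2C with 3, through FDXR with 7. GRIN1 with 284 transcripts stood between RGS3 with 12 and LRRC26 with 1, and GRIA2 with 270 stood between GLRB with 7 and GASK1B with no entry.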

How the data were processed

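The deposited tables hold names and no values of a library. Per the file headers, the table used pairs each transcript name with a gene name, and 0 of its 2 columns belong to a sample. The submitters' processing notes name Salmon 1.6.0 and alevin; how the catalogue was assembled and named is not given in the sources used here. Fields were split on white space, gene names folded to upper case, and each transcript counted once per gene name, so 194406 rows gave 194378 pairs. The RefSeq table (assembly aPleWal1.hap1) served for symbols and gene order only, with symbols made of LOC and a number left out. Members and gene lists were chosen with earlier results of these data known. Names printed are the members, their 3 nearest names, the most, fewest and absent of each list, and names sharing a component; L1TD1, CAMK2A, SLC17A6, ADARB1, flanking genes, gene order and sections were chosen after values were seen. Counting was tested on simulated tables. Results of some genes are not reported here. No p-value was computed. A table of multiplexing oligos was not used. Python 3.11.15, numpy 2.4.6 and matplotlib 3.10.9 were used.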

Additional observations from a re-analysis of the deposited data

How the results depend on the processing

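The 8 results were recomputed under 13 settings, which gave 45 values. Of these, 34 stayed within 1.5 times the reported count or within the 95% Wilson interval of a share. Both limits only sort the values. The catalogue was counted in full, so the interval measures no spread between samples. Gene names as written, every row counted and transcripts under several names left out changed none of the 7 results on the subunits. These settings could not change them, because the subunits had no other spelling, no repeated row and no transcript under a second name. Their values are counted among the 34 but say nothing about stability. TRINITY transcripts alone gave 20 transcripts, a median of 2 per subunit, 3 for AMPA and 1 for NMDA subunits, and 0 subunits with at least 100, since pt transcripts hold nearly all entries. At a limit of 50 transcripts, 5 subunits passed. Among other names with both sources, 0.794% had at least 100 transcripts. Settings chosen after seeing the data moved 4 values. Without GRIN1 and GRIA2 there were 317 transcripts, 1 subunit with at least 100 and a pt share of 95.3%. Section 3 alone held 4 TRINITY clusters. Where entries were left out, as also with TRINITY transcripts alone, totals and counts could not rise. Their falls therefore say nothing about stability. No paired analysis was possible because values of single libraries were not part of the tables used, so that no library could be left out either. Protein identity between subunits was not run.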

Other observations

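The running number in the pt names went up to 289998, and 160687 of the 289999 possible numbers (55.4%) were listed with a gene name. What the number stands for is not stated in the sources used here, so places in it are given only as a description, chosen after the values were seen. Among the lowest 10% of the numbers lay 114 of the 282 pt transcripts of GRIN1 (40.4%), 61 of 267 of GRIA2 (22.8%), 16 of 42 of GRIN2A (38.1%) and 8 of 14 of GRIN2B (57.1%). For GRIA1 it was 12 of 98, for GRIA3 7 of 81, for GRIA4 0 of 59 and for GRIN2D 1 of 8. Over the pt transcripts of all other names the share was 11.6%. No gene name had more pt transcripts in that band than GRIN1, and GRIA2 had as many as CLCN3. These are numbers and not shares, and GRIN1 and GRIA2 were picked for high transcript numbers, so nothing is read from this order. The name that came next after GRIN1 had 101 of its 205 pt transcripts there, a larger share than that of GRIN1. The highest 10% of the numbers held 19 of the 851 pt transcripts of the subunits (2.23%). It held 9.51% of those of all other names and 50.6% of those of 34 ribosomal protein genes.

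Isoform number 1 was carried by 8 of the 20 TRINITY transcripts of the subunits (40%), against 48.0% of the 33623 others. An isoform number above the number of transcripts listed for the cluster was found for 12 of 20 subunit transcripts (60%), against 46.7% of the others.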
